A study of Homo sapiens and Mus musculus with 76 samples.

Results

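The genes described here are 36 that act in mitosis, the phase in which a cell parts its copied chromosomes and divides. They were chosen by symbol from a list of names, out of 23571 gene symbols in each human table, and all 36 were found. Reads of entries that share a symbol were summed, and levels are given as CPM, reads per 1000000 reads counted in genes. The genes fall into cyclins and CDK1 (4 genes), mitotic kinases (7), and an activator and an enzyme of the anaphase-promoting complex (2). The rest are chromosomal passenger and cohesion proteins (4), centromere and kinetochore proteins (5), spindle motors and microtubule factors (9), cytokinesis proteins (2) and 3 others.

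The study set variants of Smart-Seq2, a way to copy the full length of polyadenylated RNA from 1 cell into cDNA and amplify it by PCR, beside the commercial SMART-Seq kit. Of its 76 libraries 63 are human and are used here, in 13 groups. Single cells of HEK293T, an established human embryonic kidney line that carries the SV40 large T antigen, were taken through Smart-Seq2 (7 cells), variant 1 (8), variant 2 (8), variant 3 (6), variant 4 (6) and SMART-Seq (4). The other Smart-Seq2 libraries came from 7 single cells of DG-75, an established human B lymphoma line, from HEK293T total RNA at 1 ng (3 libraries), 100 pg (3) and 10 pg (2), and from pools of 100, 50 and 10 HEK293T cells (3 libraries each). No group was treated and no time point is given. What sets the variants apart, which culture a cell or a pool came from and which phase of the cycle it was in are not stated.

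Entry into mitosis is driven by CDK1 bound to cyclin B, whose genes are transcribed mostly in late S and G2 phase. PLK1 and the Aurora kinases then build the spindle and correct how chromosomes attach to it, while BUB1, BUB1B and TTK hold back the anaphase-promoting complex until every kinetochore is attached. CDC20 switches that complex on, cyclin B is destroyed and the cell divides, so in a growing culture these transcripts are high in some cells and low in others.

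Human libraries held 1.88 M to 27.9 M gene reads (1 M being 1000000), and 3 reads, taken as the floor of detection, were worth 0.108 to 1.6 CPM. All 36 genes had a read in each library of 1 ng, of 100 pg and of each pool size, 35 had one in each 10 pg library and 34 in both, and single HEK293T cells had 33 to 36. The single DG-75 cells had 24 to 36. The 8 B cell markers summed to 780 to 7967 CPM in DG-75 cells and to 0.0831 to 23.3 CPM in HEK293T Smart-Seq2 cells, where CD79B, CD22, MS4A1 and CD74 had no read. Kidney and neural markers of HEK293T, 11 genes, summed to 651 to 1644 CPM in the latter and to 4.71 to 148 CPM in DG-75, where PAX2, LHX1 and KRT18 had no read. The 5 fibroblast markers summed to 5.89 to 184 CPM in HEK293T Smart-Seq2 cells, with DCN at 0, and to 2.22 to 72.8 CPM in DG-75, with LUM at 0.

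Promoters of cell cycle genes that peak in G2 and mitosis are known for a pair of short elements near the start of transcription, the CHR, with the letters TTTGAA in some genes and TTTAAA in others, and CCAAT boxes upstream of it, bound by the DREAM and MuvB complexes and by NF-Y. The 4 promoters below are those of CCNB1 and KIF20A, which moved most with the other genes across single HEK293T cells, and of CDK1 and BUB1B, which moved with them little. Each runs from 250 bases before to 50 bases after the gene's start as RefSeq gives it for GRCh38.p14, in the direction of transcription, and capitals mark these motifs on either strand. All 4 are on the plus strand, at chr5:69166900-69167199, chr5:138178862-138179161, chr10:60778081-60778380 and chr15:40160819-40161118.
CCNB1: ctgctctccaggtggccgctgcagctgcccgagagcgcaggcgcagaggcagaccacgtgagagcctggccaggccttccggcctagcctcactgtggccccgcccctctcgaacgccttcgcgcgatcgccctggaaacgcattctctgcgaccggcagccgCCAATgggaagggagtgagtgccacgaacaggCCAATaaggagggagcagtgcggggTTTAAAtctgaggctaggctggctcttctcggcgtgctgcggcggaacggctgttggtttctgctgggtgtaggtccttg
KIF20A: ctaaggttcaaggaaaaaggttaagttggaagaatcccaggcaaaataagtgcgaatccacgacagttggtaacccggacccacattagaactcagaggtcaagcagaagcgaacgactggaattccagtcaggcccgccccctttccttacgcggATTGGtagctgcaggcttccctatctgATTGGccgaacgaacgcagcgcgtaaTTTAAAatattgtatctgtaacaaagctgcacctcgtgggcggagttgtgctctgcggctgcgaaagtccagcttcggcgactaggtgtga
CDK1: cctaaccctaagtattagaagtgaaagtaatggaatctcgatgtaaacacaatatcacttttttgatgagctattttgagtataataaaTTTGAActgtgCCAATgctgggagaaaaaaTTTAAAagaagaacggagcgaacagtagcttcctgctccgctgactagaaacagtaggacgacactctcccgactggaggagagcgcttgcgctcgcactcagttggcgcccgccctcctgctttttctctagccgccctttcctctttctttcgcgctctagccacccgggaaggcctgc
BUB1B: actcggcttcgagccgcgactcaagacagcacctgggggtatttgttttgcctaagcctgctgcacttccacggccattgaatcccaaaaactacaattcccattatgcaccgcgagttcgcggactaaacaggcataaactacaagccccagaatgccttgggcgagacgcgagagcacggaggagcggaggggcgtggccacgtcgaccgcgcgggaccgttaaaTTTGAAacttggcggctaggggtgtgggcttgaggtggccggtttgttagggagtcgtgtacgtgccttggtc

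In CCNB1, cyclin B1, TTTAAA began 30 bases before the start (position -30) and CCAAT lay at -87 and -55. KIF20A, a kinesin of the central spindle, had the same arrangement, with TTTAAA at -41 and CCAAT at -94 and -67. CDK1 had TTTGAA at -161, TTTAAA at -131 and CCAAT at -150. BUB1B, a checkpoint protein, had TTTGAA at -23 and no CCAAT in the window. A link between these motifs and how a gene moved with the others was not tested. ANLN, next after KIF20A in moving with the others, had TTTGAA at -26 and -20 and 0 CCAAT. SGOL1, which moved with them less than BUB1B, had 1 CCAAT and neither TTTGAA nor TTTAAA. Of the 36 genes 31 had a promoter entry in the RefSeq table, SGOL1 under its current name SGO1. AURKA, TTK, UBE2C, BIRC5 and TPX2 had none. TTTGAA was present on either strand in 22 of the 31 (71.0%) and in 15.2% of all 35116 promoters of the table. TTTAAA was present in 12 (38.7% against 12.2%) and CCAAT in 25 (80.6% against 34.6%). At least 1 of the hexamers together with a CCAAT stood in 20 of the 31 promoters (64.5%) and in 9.27% of all promoters. TTTAAA reads the same on both strands, no motif contains another, and a match describes the sequence only.

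Levels of different genes were compared per length, as RPKM, the reads per kilobase of transcript and 1000000 reads that the authors computed. In 1 ng of RNA the mean RPKM was highest for UBE2C (348), the ubiquitin-conjugating enzyme of the anaphase-promoting complex, BIRC5 (263), the survivin subunit of the passenger complex, CCNB1 (255) and CDC20 (227). It was lowest for CENPA (5.40), the centromeric histone, ASPM (5.58), a spindle pole protein, and INCENP (5.60), the scaffold of the passenger complex. Single Smart-Seq2 HEK293T cells had their highest mean RPKM for BUB1B (339), CCNB1 (289) and CDC20 (277), and single DG-75 cells for BUB1B (654), NUSAP1 (317) and CDK1 (304). Without replicate 2 of the HEK293T cells the means were 239.3 for BUB1B, 216 for UBE2C and 196 for AURKB, with CCNB1 at 174 and CDC20 at 161, so the order below BUB1B rested on that cell. SMART-Seq cells had 46.7 RPKM for BUB1B and 711 for CCNB1.

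The summed level of the 36 genes spanned most among Smart-Seq2 cells of HEK293T and of DG-75. It was 7880 to 8362 CPM in 1 ng, 8515 to 8946 CPM in 100 pg, 8278 and 10946 CPM in 10 pg, 7081 to 8014 CPM in 100 cells, 7719 to 8933 CPM in 50 cells and 8549 to 9420 CPM in 10 cells. Single HEK293T cells spanned 4270 to 40366 CPM (median 6581) with Smart-Seq2, 5471 to 16529 with variant 1, 6034 to 10771 with variant 2, 9342 to 15812 with variant 3, 4747 to 9522 with variant 4 and 11902 to 13891 with SMART-Seq. DG-75 cells spanned 2478 to 14600 CPM. The highest library, replicate 2 of HEK293T Smart-Seq2, gave 4.04% of its reads to the 36 genes.

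**Figure D1:**
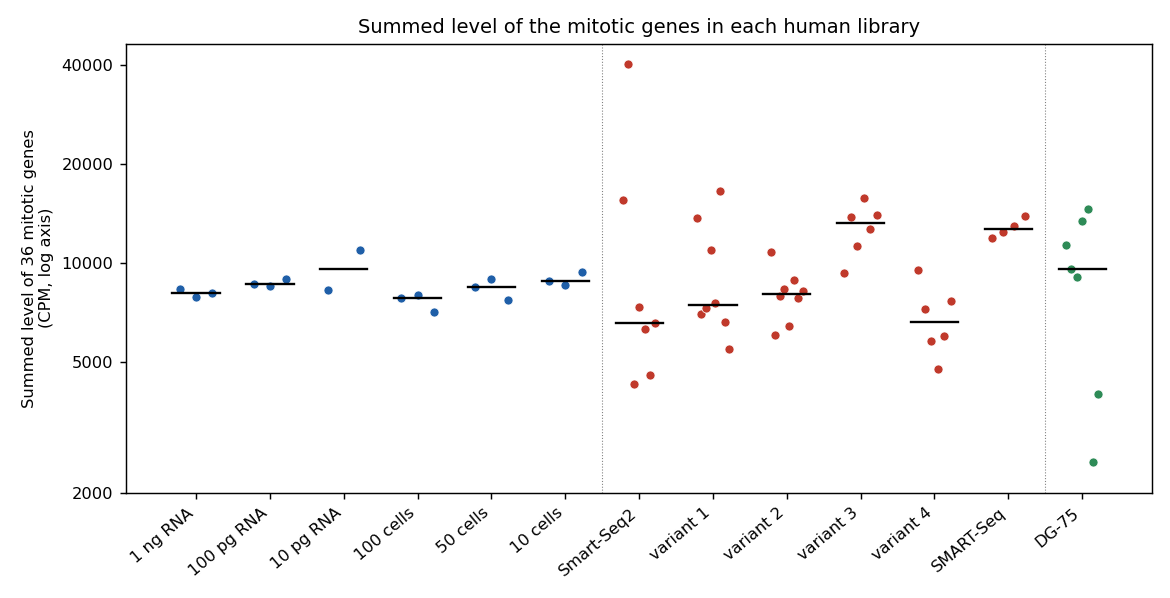
Summed level of the 36 mitotic genes (CPM, log axis) in each human library, 1 point a library, by group, with a line at each group's median. Bulk libraries lie between 7081 and 10946 CPM, while single Smart-Seq2 HEK293T cells reach from 4270 to 40366 and DG-75 cells from 2478 to 14600.

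Among cyclins and their kinase, CCNB1 had 629.9, 499 and 525 CPM in 1 ng, 485, 639.8 and 597 in 100 pg, and 718 and 527 in 10 pg. The pools had 859.7, 811 and 832 CPM for 100 cells, 816, 774 and 853 for 50 cells and 750.0, 578 and 755 for 10 cells. All libraries of 100 and 50 cells lay above all of 1 ng, 100 pg and 10 pg. In single Smart-Seq2 HEK293T cells CCNB1 ranged from 83.4 to 2085 CPM (median 324), the medians of variants 1 to 4 were 274, 266, 1226 and 130.01, and the SMART-Seq cells had 1171, 1649, 1060.2 and 2152. DG-75 cells had 145, 157, 148, 146, 205, 0 and 44.5 CPM, so 5 cells were alike and replicates 6 and 7 were low. CDK1, the kinase that cyclin B activates, had 313, 252 and 308 CPM in 1 ng, 339.6, 272 and 319.7 in 100 pg, and 158 and 428 in 10 pg. It had 686, 717 and 409 CPM in 100 cells, 522, 612 and 347 in 50 cells and 443, 460.0 and 391 in 10 cells. Every pool was above every library of 1 ng and 100 pg. Single cells gave CDK1 113 to 755 CPM (median 284) with Smart-Seq2, medians of 222, 183, 653 and 416 with variants 1 to 4, and 807, 207, 1168 and 1272 CPM with SMART-Seq. DG-75 cells had 783, 368, 756, 962, 1092, 0.672 and 57.02 CPM, again with replicates 6 and 7 below all others.

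CDC20 and UBE2C, an activator and an enzyme of the anaphase-promoting complex, went opposite ways between cell pools and RNA. CDC20 had 328, 369 and 332 CPM in 1 ng, 293, 279 and 314 in 100 pg and 345 and 295 in 10 pg. It had 166, 159.7 and 231 CPM in 100 cells, 235, 194 and 254 in 50 cells and 332, 246 and 399.7 in 10 cells, so the 100-cell and 50-cell libraries were below every RNA library and the 10-cell libraries overlapped them. UBE2C had 231, 268 and 224 CPM in 1 ng, 273, 258 and 227 in 100 pg, and 233 and 197 in 10 pg. It had 460.3, 434 and 454 CPM in 100 cells, 381, 309 and 435 in 50 cells, and 264, 256 and 412 in 10 cells, the larger pools being above all RNA libraries. Single HEK293T cells gave CDC20 54.1 to 1449.6 CPM (median 278) with Smart-Seq2, medians of 238, 245, 31.8 and 118 with variants 1 to 4 and 111, 169, 142 and 181 with SMART-Seq. UBE2C ranged from 4.73 to 675 CPM (median 33.2) with Smart-Seq2, the variants' medians were 166, 130.5, 30.1 and 131, and SMART-Seq cells had 369, 145, 216 and 883 CPM. In DG-75, CDC20 had 0.4, 28.5, 37.6, 12.6, 73.0, 18.7 and 0 CPM and UBE2C 255, 221, 139, 214, 284, 0.168 and 0.338. CDC20 was thus low in all DG-75 cells, and UBE2C was low in replicates 6 and 7 alone.

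Of the kinases, PLK1, which acts on centrosomes, kinetochores and cytokinesis, had 337, 424 and 372 CPM in 1 ng, 306, 338 and 330.4 in 100 pg and 394 and 314 in 10 pg. It had 94.3, 85.8 and 154 CPM in 100 cells, 161, 157 and 210.1 in 50 cells and 269, 286 and 418 in 10 cells. Libraries of 100 cells lay below those of 50 cells, which lay below those of 10 cells, with no overlap. Single HEK293T cells ranged from 9.65 to 757 CPM (median 95.5) with Smart-Seq2, had medians of 160.2, 135, 49.2 and 111 with the variants, and 99.1, 175, 128 and 194 CPM with SMART-Seq. DG-75 cells had 60.6, 0, 8.5, 64.4, 167, 0.168 and 0 CPM. PLK1 therefore had no clear split of DG-75 cells, 2 of the first 5 being under 10 CPM as well. The levels of AURKB, the kinase of the passenger complex, were 225, 191 and 209 CPM in 1 ng, 212, 228 and 230.0 in 100 pg, 256 and 120.0 in 10 pg, 219.8, 209.7 and 298 in 100 cells, 234, 213 and 311 in 50 cells, and 244, 238 and 320.5 in 10 cells. The 10-cell libraries lay above those of 1 ng and 100 pg, and all other pairs of bulk groups overlapped. Single cells had 117 to 621 CPM (median 244) with Smart-Seq2, medians of 284, 309, 186 and 149 with the variants, and 417, 489, 962 and 465 CPM with SMART-Seq. DG-75 cells had 270, 518, 289.8, 395, 419, 100.2 and 130 CPM, and here replicates 6 and 7, though lowest, kept reads far above the floor.

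CENPE, a kinesin that moves chromosomes to the spindle equator, had 81.1, 97.9 and 96.6 CPM in 1 ng, 128, 113 and 81.4 in 100 pg and 15.996 and 149 in 10 pg. It had 155, 183 and 80.3 CPM in 100 cells, 172, 187 and 76.1 in 50 cells and 129.6, 125 and 106 in 10 cells. In the 2 larger pools replicate 3 was low, within the RNA libraries. Single HEK293T cells had 65.3 to 1448 CPM (median 139) with Smart-Seq2, medians of 159, 121, 293 and 72.3 with the variants, and 266, 403, 527 and 605 CPM with SMART-Seq. DG-75 cells had 0, 0, 5.37, 1.68, 54.4, 0 and 0.169 CPM, all below every Smart-Seq2 HEK293T cell.

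TOP2A, the topoisomerase that untangles sister chromatids, had 885, 742 and 839 CPM in 1 ng, 1015, 1006 and 1067 in 100 pg, and 679 and 1909 in 10 pg. Pools had 545, 624.8 and 398 CPM for 100 cells, 606, 706 and 513 for 50 cells and 753, 677 and 742 for 10 cells. Each pool was thus below each 100 pg library. MKI67, the Ki-67 protein that coats mitotic chromosomes and marks cycling cells, had 152, 145 and 133 CPM in 1 ng, 149, 159 and 202 in 100 pg, 234 and 92.0 in 10 pg, 85.5, 101 and 108 in 100 cells, 145, 148 and 155 in 50 cells, and 137, 208 and 194 in 10 cells. Single HEK293T cells had TOP2A at 152 to 1795 CPM (median 271) with Smart-Seq2, at medians of 678, 511, 1871 and 583 with the variants, and at 1106, 891, 1293 and 1281 with SMART-Seq. MKI67 had 39.9 to 609 CPM (median 299) with Smart-Seq2, medians of 201, 179, 244 and 126 with the variants and 157, 78.9, 116 and 72.5 with SMART-Seq. In DG-75, TOP2A had 1779.5, 583, 322, 1354, 1619, 4.54 and 29.6 CPM and MKI67 had 511, 504, 263, 359.5, 798, 11.9 and 1.02. Both genes set replicates 6 and 7 apart from the other 5 cells, with no overlap.

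**Figure D2:**
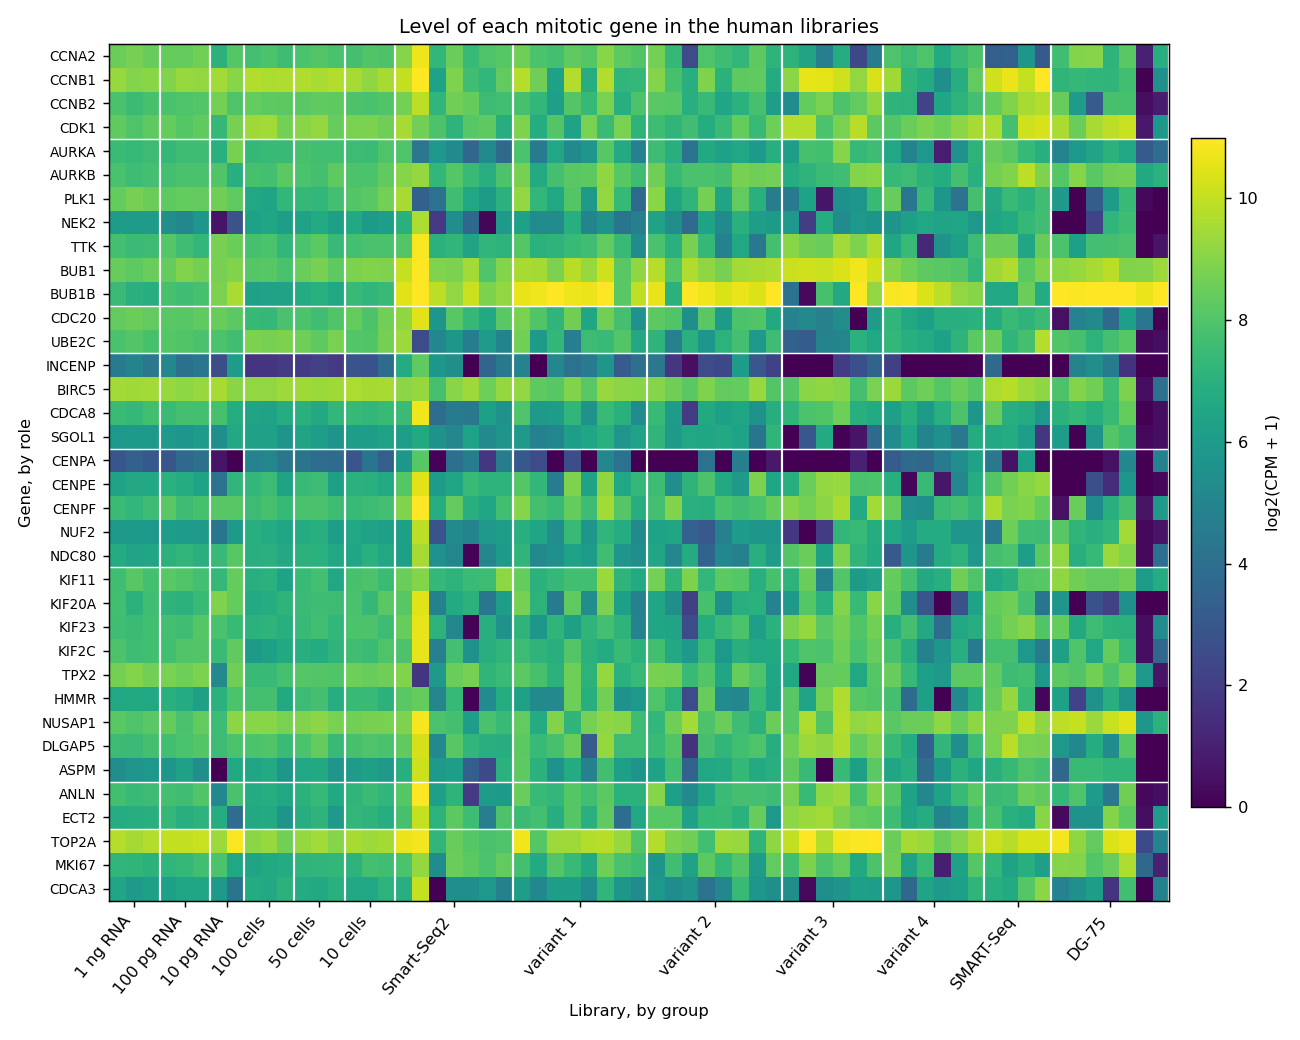
Level of each of the 36 genes (log2(CPM + 1), colour) in each human library, genes ordered by role and libraries by group. HEK293T Smart-Seq2 replicate 2 is high for most genes, and DG-75 replicates 6 and 7 are low for most, with 27 and 18 genes under 5 CPM.

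Whole cells were first compared with purified RNA at the higher input. Of the 36 genes 15 were higher and 11 lower in 100 cells than in 1 ng of RNA (edgeR quasi-likelihood F test, Benjamini-Hochberg adjusted p under 0.05 over all genes). That is 26 of 36, beside 62.7% of all genes tested, of which 29.7% were higher and 33.1% lower, so the share of mitotic genes called lay near that of all genes. Ranges did not overlap for 26 members either, beside 65.8% of all genes. By role, 3 of the 4 cyclins and CDK1 rose and 1 fell, 4 of 5 centromere and kinetochore genes rose, 2 of 4 passenger and cohesion genes fell, and 4 of 9 spindle genes rose and 3 fell. Of the kinases 2 rose and 2 fell. The median log2 fold change of the members was 0.26 and that of all genes -0.03. In pools of whole cells, fewer cells of a phase and less RNA per cell cannot be told apart.

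The genes with the smallest adjusted p that rose were UBE2C, CENPA and NUSAP1. UBE2C rose by 1.13 ± 0.16 on the log2 scale (SE, 3 libraries each, edgeR adjusted p = 5.5e-06) at the CPM given above. CENPA had 28.1, 30.8 and 19.1 CPM in 100 cells and 6.65, 9.41 and 7.05 in 1 ng, a log2 fold change of 1.99 ± 0.28 (edgeR adjusted p = 6.59e-06). NUSAP1, which bundles microtubules near chromosomes, had 531, 522 and 435 CPM and 293, 248.5 and 290.5, a change of 1.07 ± 0.17 (edgeR adjusted p = 1.9e-05). None of the 3 overlapped between the groups. CDK1 rose by 1.29 ± 0.20, CCNB1 by 0.83 and its relative CCNB2 by 0.83, the last from 227, 179 and 219 to 335, 311 and 303 CPM. NUF2, of the kinetochore's microtubule-binding complex, rose by 1.08 and HMMR, a spindle-associated protein, by 1.07.

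On the falling side INCENP had 2.24, 2.199 and 2.701 CPM in 100 cells and 21.8, 29.6 and 19.6 in 1 ng, a log2 fold change of -3.05 ± 0.31 (edgeR adjusted p = 1.09e-07). PLK1 fell by 1.53 ± 0.20 (edgeR adjusted p = 2.61e-06). KIF2C, a kinesin that takes microtubules apart at centromeres, had 61.3, 74.8 and 100.5 CPM against 245, 192 and 200.3 and fell by 1.21 ± 0.20 (edgeR adjusted p = 3.43e-05). TPX2, which activates AURKA on the spindle, fell by 0.96, KIF11, the motor that pushes spindle poles apart, by 0.82, CDCA8, the borealin subunit of the passenger complex, by 0.73, and CDC20 by 0.66. CCNA2, cyclin A2, fell by 0.62 from 373, 432 and 349.7 to 209.6, 237 and 192 CPM. MKI67 did not pass, although its groups did not overlap (log2 fold change -0.32 ± 0.17, edgeR adjusted p = 0.117).

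GC content moved with these changes. Across the members the log2 fold change had a Spearman rho of -0.37 with transcript GC content and -0.42 with length, beside -0.41 and -0.31 across all genes, and genes are not independent replicates. INCENP (59.9% GC), PLK1 (57.3%) and CDC20 (56.96%) were lower in cells, and CDK1 (35.6%), NUF2 (37.8%) and HMMR (37.0%) higher, but AURKB (56.0%) and CDCA3 (54.5%) were higher too and KIF11 (38.3%) and TOP2A (39.1%) lower. With a trend on GC content and length taken out, a setting chosen after seeing the data, 18 of the 26 calls were kept. CDK1 (0.20, edgeR adjusted p = 0.18), CDC20 (-0.19, adjusted p = 0.17), UBE2C (0.31, adjusted p = 0.065), CENPE (0.12, adjusted p = 0.44) and NUF2 (0.28, adjusted p = 0.079) were among the 8 that were not. PLK1 (-0.71), INCENP (-1.68), KIF2C (-0.78), CENPA (1.42) and NUSAP1 (0.77) kept theirs. A trend on length alone also ended 8 of the 26 calls. These were CCNA2 (-0.31, edgeR adjusted p = 0.098), BUB1B (-0.17, adjusted p = 0.48), KIF11 (-0.36, adjusted p = 0.089), UBE2C (0.28, adjusted p = 0.11), CDCA3 (0.31, adjusted p = 0.14), ANLN, TOP2A and AURKB. With library totals in place of TMM, 11 members were higher and 15 lower, beside 2502 and 4535 of all genes. The median of all genes was then -0.25.

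Other lists of the cell cycle were split as well in 100 cells against 1 ng. Of 77 other mitotic genes tested 27 rose and 28 fell, with CKS2 (2.25), a CDK-binding protein, and PTTG1 (1.84), securin, highest in confidence among those that rose, and PKMYT1 (-4.30), a kinase that inhibits CDK1, and TACC3 (-2.14), a spindle protein, among those that fell. Of 16 subunits of the anaphase-promoting complex 7 rose, such as ANAPC11 (1.26) and ANAPC10 (1.66), and 4 fell, such as ANAPC2 (-5.92) and ANAPC1 (-1.75). Of 26 G1/S genes 4 rose, among them CCNE1 (2.61), cyclin E1, and PCNA (0.89), the sliding clamp, and 11 fell, among them MCM4 (-2.42), a helicase subunit, and UHRF1 (-2.97).

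**Figure D3:**
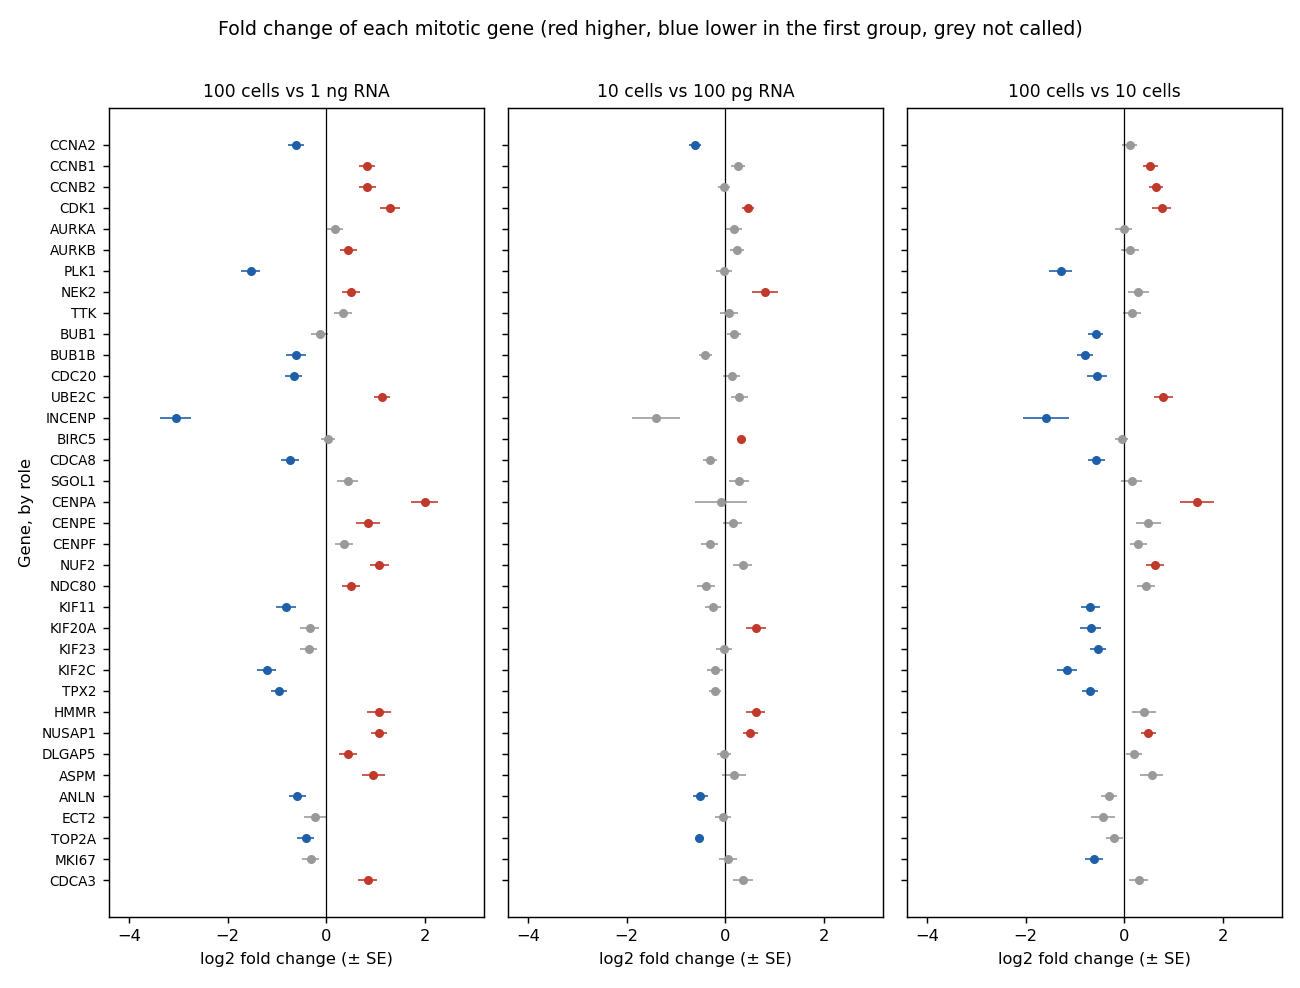
Log2 fold change with its SE for each of the 36 genes in 100 cells over 1 ng of RNA, in 10 cells over 100 pg and in 100 over 10 cells, by role, with genes called higher in red and lower in blue. INCENP and PLK1 are the lowest and CENPA the highest in the first panel, with 26 genes coloured there, 9 in the second and 19 in the third.

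At the lower input fewer members were called. In 10 cells against 100 pg of RNA 6 rose and 3 fell, 9 of 36 beside 19.3% of all genes tested (7.81% higher and 11.5% lower), and ranges did not overlap for 15, beside 37.8%. TOP2A fell by 0.53 ± 0.09 (edgeR adjusted p = 0.00177), CCNA2 by 0.61 ± 0.13 (adjusted p = 0.00491), from 335, 339 and 399 to 217, 254 and 241 CPM, and ANLN, the actin-binding scaffold of the cleavage furrow, by 0.51 ± 0.15 (adjusted p = 0.0333). NUSAP1 rose by 0.51 ± 0.15 (edgeR adjusted p = 0.028), CDK1 by 0.46 ± 0.12 (adjusted p = 0.0183) and BIRC5 by 0.33 ± 0.10 (adjusted p = 0.0348), and HMMR (0.61), NEK2 (0.80), a centrosomal kinase, and KIF20A (0.62) passed too. PLK1, UBE2C and CDC20, whose libraries overlapped, did not. Left out 1 at a time, each library lowered the count. It went to 6, 4 and 6 without 100 pg replicates 1, 3 and 4. Without 10-cell replicates 1, 2 and 3 it was 2, 4 and 5. Genes called in all were then 2264, 1949, 2179, 1252, 1401 and 1600, beside 2252 with every library. CDK1 went to -0.15 with the GC and length trend taken out.

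Of the other lists in 10 cells against 100 pg, 13 of 77 mitotic genes rose, such as CKS2 (1.61) and TROAP (1.24), and 13 fell, such as CASC5 and RACGAP1 (-1.31), a cytokinesis protein. Of 15 tested subunits of the anaphase-promoting complex ANAPC11 (0.71), ANAPC10 (0.90) and ANAPC4 (0.75) rose and ANAPC1 (-0.91) fell. No G1/S gene rose and 8 of 26 fell, such as MCM4 (-0.97) and UHRF1 (-1.45).

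The difference between cells and RNA was itself compared at the 2 inputs, as (100 cells over 1 ng) less (10 cells over 100 pg). In this test 5 members were higher and 5 lower, 10 of 36 beside 17.9% of all genes (7.23% higher and 10.7% lower). PLK1 differed by -1.498 ± 0.28 on the log2 scale (edgeR adjusted p = 0.00108) and CCNB2 by 0.87 ± 0.20 (adjusted p = 0.00481), and both kept their calls under every alternative run, each library left out included. TPX2 (-0.74), UBE2C (0.85), KIF2C (-0.98), CENPA (2.08), NDC80 (0.89), a kinetochore protein, CDK1 (0.83), CDC20 (-0.77) and KIF20A (-0.95) also passed. The trend on GC content and length ended the calls of CDK1 (0.36, edgeR adjusted p = 0.14), CDC20 (-0.35, adjusted p = 0.18), UBE2C (0.47, adjusted p = 0.15), CENPA (1.77, adjusted p = 0.0503) and KIF20A (-0.77, adjusted p = 0.0895). The trend on length alone ended those of UBE2C, KIF20A, KIF2C and TPX2. Left out 1 at a time, 100-cell replicates 1, 2 and 3 moved the count to 5, 5 and 18. Without 1 ng replicate 3 it was 6. Of all genes 1385, 1554, 2918 and 1463 were then called, beside 2188 with every library.

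Pools of different size were compared next, and these comparisons share the 100-cell and 10-cell libraries with those above. In 100 against 10 cells 7 members rose and 12 fell, 19 of 36 beside 31.0% of all genes (13.6% higher and 17.4% lower). KIF2C fell by 1.17 ± 0.21 (edgeR adjusted p = 0.00084), from 199, 182 and 252 CPM, and PLK1 by 1.29 ± 0.23 (adjusted p = 0.00095). BUB1B fell by 0.79 ± 0.17 (edgeR adjusted p = 0.00252), with 76.4, 79.4 and 80.1 CPM in 100 cells and 167, 149.9 and 173 in 10 cells. CCNB2 rose by 0.64 ± 0.15 (edgeR adjusted p = 0.00528) from 242, 228 and 260.5 CPM, CENPA by 1.47 ± 0.35 (adjusted p = 0.00576) from 6.55, 18.2 and 8.97, and UBE2C by 0.79 ± 0.19 (adjusted p = 0.00644). The call of UBE2C was lost without 10-cell replicate 1 (edgeR adjusted p = 0.053), with the length trend (0.23, adjusted p = 0.29) and with the trend on GC content and length (0.24, adjusted p = 0.21). With library totals 3 members rose and 15 fell, beside 856 and 3117 of all genes, whose median went to -0.31. Without 100-cell replicate 1 or 2, or 10-cell replicate 1, 11, 12 and 12 members were called, beside 2174, 2571 and 2602 genes. With every library 3567 genes were called. With the replicate number as a block 9 members rose and 13 fell, beside 4720 genes (2149 higher and 2571 lower).

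Of the 77 other mitotic genes 13 rose in 100 against 10 cells, such as PTTG1 (1.14) and CKS1B (1.10), and 19 fell, such as SPAG5 (-1.33), a spindle protein, and NCAPD2 (-1.22), a condensin subunit. Of the complex's subunits 6 rose, ANAPC11 (0.84) and ANAPC16 (0.75) first, and 3 fell, with ANAPC2 (-4.78) and ANAPC1 (-1.05). G1/S genes had 4 that rose, PCNA (0.90) and CCNE1 (1.48) among them, and 10 that fell, MCM4 (-1.54) and MCM5 (-1.74) among them.

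Between 100 and 50 cells no member passed (0.0% of all genes did) in edgeR, and DESeq2 and limma called 0 members. An unadjusted edgeR p under 0.05 was found for 5 members and for 7 of 77 other mitotic genes. The share of all genes under it was not counted. Same-numbered libraries deviated together here (correlations 0.244, 0.671 and 0.785), but 100-cell replicate 1 and 50-cell replicate 2 did too (0.594). With the number as a block 4 members rose and 4 fell, 8 of 36 beside 13.9% of all genes (8.38% higher and 5.56% lower). CENPA then rose by 0.95 ± 0.18 (edgeR adjusted p = 9.6e-05), with 17.7, 14.4 and 13.6 CPM in 50 cells, and PLK1 fell by 0.49 ± 0.11 (adjusted p = 0.000778). CDK1 (0.49), UBE2C (0.47) and NUF2 (0.32) rose in that fit and KIF2C (-0.48), KIF20A (-0.44) and MKI67 (-0.42) fell. In 50 against 10 cells PLK1 fell by 0.80 ± 0.21 (edgeR adjusted p = 0.0215), KIF2C by 0.68 ± 0.19 (adjusted p = 0.0323) and INCENP by 1.47 ± 0.46 (adjusted p = 0.0491), 3 of 36 beside 11.2% of all genes (3.11% higher and 8.06% lower). KIF2C had 121, 109 and 143 CPM in 50 cells and INCENP 2.85, 3.45 and 2.53 against 6.30, 5.81 and 13.9, so the groups did not overlap for these genes. The count went to 0, 1 and 8 without 50-cell replicates 1, 2 and 3, and to 1 and 0 without 10-cell replicates 1 and 3. The genes called were then 325, 1195, 1742, 662 and 819 in that order, beside 1279 with every library. With the replicate number as a block 3 members rose and 7 fell in 50 against 10 cells, beside 2879 of 11451 genes (1219 higher and 1660 lower).

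Between amounts of RNA few of these genes passed in edgeR, which does not show that the others stayed alike. In 1 ng against 10 pg DESeq2 called 10 members, and 3306 genes in all. Between 1 ng and 100 pg no member passed in edgeR, beside 0.0262% of all genes, and DESeq2 and limma called 0. Here 6 members and 7 of 77 other mitotic genes had an unadjusted edgeR p under 0.05, a share not counted for all genes. Against 10 pg CENPA was higher in 1 ng, with 75 reads over the 3 libraries of 1 ng and 1 read over the 2 of 10 pg, a ratio of 31.8 (95% interval of the counts 5.53 to 1272). TTK fell by 1.02 ± 0.16 (edgeR adjusted p = 0.0151) from 429 and 369 CPM in 10 pg to 209.5, 178 and 183 in 1 ng, and BUB1B by 2.07 ± 0.34 (adjusted p = 0.0161) from 454 and 775 to 182, 125 and 115. These 3 of 36 stand beside 18.4% of all genes, 16.9% higher in 1 ng and 1.54% lower. With 2 libraries of 10 pg the result rested on single libraries. Without any 1 of the 3 of 1 ng, 0 members and 0 genes in all were called. Without 10 pg replicate 1 the members' median log2 fold change was -0.20, beside 0.73 for all genes. Without replicate 2 it was 0.12, beside 0.57.

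Single-cell groups count as 1 sample each, since no label separates cultures, so protocols were compared by reads summed over cells, without a test, and a member is counted where it was past 2-fold with 1 CPM added to both groups. All ratios share the 7 Smart-Seq2 HEK293T cells as denominator, and the counts and medians are also given without replicate 2 of them, which holds many of the high values. Against Smart-Seq2, variant 1 had 0 members higher and 2 lower. Of all genes at 10 CPM or more in either group 11.8% were past 2-fold there, 4.93% higher and 6.88% lower. Variant 2 had 0 members higher and 7 lower, beside 15.5% of all genes (6.24% higher and 9.28% lower). Variant 3 had 7 higher and 9 lower, beside 63.0% (19.9% and 43.1%). Variant 4 had 0 higher and 13 lower, beside 16.7% (8.34% and 8.33%), and SMART-Seq had 8 higher and 6 lower, beside 56.5% (19.2% and 37.3%). The members' median log2 ratio was -0.24, -0.60, 0.18, -0.72 and 0.39 in that order, beside -0.01, -0.04, -0.54, 0.05 and -0.39 for all genes. Without Smart-Seq2 replicate 2 it was 0.16, -0.06, 0.85, -0.44 and 1.03, so that cell set the sign for variant 1 and moved all 5. The counts without it were 1 higher and 2 lower for variant 1, 0 and 2 for variant 2, 17 and 8 for variant 3, 0 and 4 for variant 4, and 19 and 4 for SMART-Seq.

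INCENP was past 2-fold lower in all 5 comparisons and CENPA in those of variants 1 to 3. CENPA had 40.4 CPM with Smart-Seq2 (exact 95% Poisson interval 39.0 to 41.8, counting error only) and 8.61 with variant 1 (8.02 to 9.24), 5.22 with variant 2 (4.68 to 5.81) and 0.0794 with variant 3 (0.0343 to 0.157), log2 ratios of -2.11, -2.73 and -5.26. In variant 3 a single cell of 6 had a CENPA read. Without Smart-Seq2 replicate 2 CENPA had 23.05 CPM there, and the ratios were -1.32, -1.95 and -4.48. INCENP had 64.2 CPM with Smart-Seq2 and 22.2, 11.9, 2.04 and 0.534 with variants 1 to 4 and 2.83 with SMART-Seq, log2 ratios of -1.49, -2.34, -4.43, -5.41 and -4.09. It had 45.7 CPM without Smart-Seq2 replicate 2, with ratios of -1.01, -1.86, -3.94, -4.93 and -3.61, and with each other cell left out it also remained past 2-fold lower. CDCA3, a trigger of mitotic entry, was 1.14 lower on the log2 scale with variant 2 (53.3 against 119 CPM), a difference that rested on Smart-Seq2 replicate 2, without which it was 53.3 against 52.3 CPM (0.03). With variant 4, CENPE (71.3 against 241 CPM, -1.75) and CDC20 (116 against 352, -1.59) followed INCENP, at -1.10 and -1.22 without that cell.

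Variant 3 and SMART-Seq shared several of their differences from Smart-Seq2, and they share its cells as denominator. CCNA2 had 4.27 to 139 CPM in variant 3 cells and 8.93, 9.61, 54.6 and 7.54 in SMART-Seq cells, all below the 157 to 1711 of Smart-Seq2 (log2 ratios -2.45 and -4.16). Such a gap between the ranges was found for 13.9% and 13.6% of all genes in these comparisons, and CCNA2 was the single member with one in variant 3. BUB1B in SMART-Seq cells, with 98.4, 92.1, 361 and 109 CPM, was also below all Smart-Seq2 cells (458 to 3363, log2 ratio -2.63). CDC20 was 3.33 lower with variant 3 (34.1 against 352 CPM). Higher with variant 3 were AURKA (274 against 76.5 CPM, 1.83), a kinase of the spindle poles, HMMR (420 against 139, 1.59) and NDC80 (275 against 91.7, 1.57), and higher with SMART-Seq were AURKA (218, 1.5), CCNB1 (1522 against 542, 1.49) and CDK1 (907 against 339, 1.42). With 1 cell of either group left out in turn, AURKA ranged from 1.25 to 3.135, HMMR from 0.91, without variant 3 replicate 4, to 2.09 and NDC80 from 1.13 to 2.63 in variant 3, the highest values without Smart-Seq2 replicate 1, 1 and 2. In SMART-Seq, AURKA then ranged from 1.24 to 2.805, CCNB1 from 1.23 to 1.87 and CDK1 from 1.17 to 1.996, and CCNA2 from -5.39, without SMART-Seq replicate 3, to -3.77. Within each role, members went both ways in variant 3, with these exceptions. Of the 9 spindle genes 2 were higher and 0 lower. CDC20 and UBE2C were both lower, as were 2 passenger genes, and 1 cytokinesis gene was higher.

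Cell by cell, the spread of these genes in Smart-Seq2 HEK293T cells was wider than that of other genes. The median SD of log2(CPM + 1) was 1.59 over the members and 1.24 over all genes at 10 CPM or more, and without replicate 2 it was 1.22 and 0.85. It was 0.91 against 0.93 for variant 1, 1.03 against 1.203 for variant 2, 0.98 against 1.89 for variant 3, 1.13 against 0.98 for variant 4 and 0.77 against 1.86 for SMART-Seq. Bulk libraries had 0.14 to 0.23, save for 10 pg with 0.71. In Smart-Seq2 cells the SD was largest for KIF23 (3.27), a motor of the central spindle with 346, 1553, 136, 33.0, 0.0900, 117 and 49.0 CPM, NEK2 (3.2) and CDCA3 (2.98), and smallest for BIRC5 (0.56), with 219 to 663 CPM, SGOL1 (0.58), the shugoshin that protects cohesion, with 33.3 to 100.3, and KIF11 (0.83), with 137 to 554. KIF23 was high in replicates 1 and 2 and below the floor of detection in replicate 5, while BIRC5 stayed within a narrow band in all 7 cells.

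Replicate 2 of these cells stood apart. It was the highest of its group for 29 of the 36 genes, and for 29 it was over 2-fold above the median of the other 6, beside 17.3% of all genes. PLK1 (9.65 CPM), UBE2C (4.73) and TPX2 (2.27) were under 0.5 of that median in the same cell. Its G1/S genes summed to 915 CPM, while the other 6 cells had 4027 to 9374. Replicate 1 followed, with a sum of 15604 CPM and 22 genes over 2-fold above the others (12.1% of all genes). Replicate 6 of variant 1 was highest in its group for 24 genes and over 2-fold for 21 (13.1%). Smart-Seq2 replicate 2 had the fewest reads of its group, 5.29 M. With 1.8 M reads drawn from each library it also had the fewest genes, 9477 against 10646 to 11895. Its level of CASC5, a kinetochore gene described below, was the highest of the group (123563 CPM). Replicate 6 of variant 1 likewise had the fewest genes (10343 against 10702 to 11866) and the most CASC5 (127802 CPM) of its group. Smart-Seq2 replicate 1 had 11288 genes. The part of depth, gene number and CASC5 in these high levels was not tested.

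**Figure D4:**
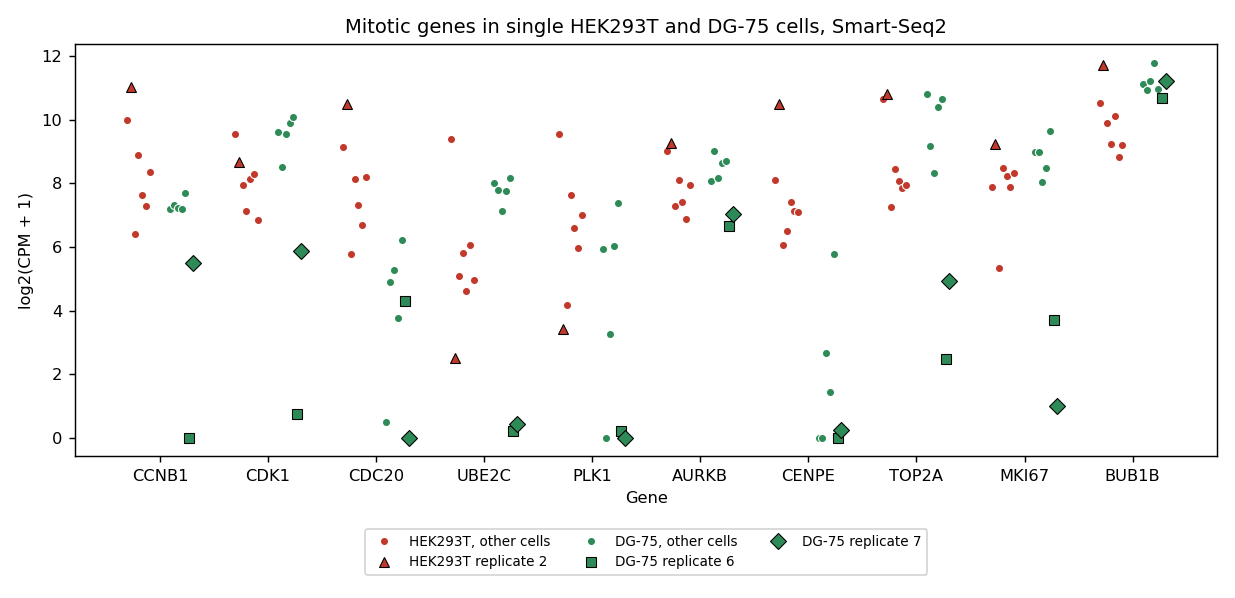
Level (log2(CPM + 1)) of the 9 genes chosen by role and of BUB1B in single HEK293T and DG-75 cells with Smart-Seq2, 1 point a cell, with HEK293T replicate 2 and DG-75 replicates 6 and 7 marked by shape. In DG-75 replicates 6 and 7 lie below the other 5 cells for CCNB1, CDK1, UBE2C, AURKB, TOP2A and MKI67, and in HEK293T Smart-Seq2 replicate 2 is highest for CCNB1, CDC20, AURKB, CENPE, TOP2A and MKI67.

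In DG-75 cells the median SD of log2(CPM + 1) was 3.10 over the 36 genes and 2.28 over all genes at 10 CPM or more, and 2 of 7 cells had few mitotic transcripts. In replicates 6 and 7, 31 and 29 of the 36 genes were under 0.5 of the median of the other cells, beside 22.4% and 36.3% of the 9284 genes of 10 CPM or more on average, and 24 and 28 had a read at all. NDC80, for example, had 599, 123, 166, 652 and 499 CPM in replicates 1 to 5 and 0.168 and 15.4 in replicates 6 and 7, and NUSAP1 had 954, 1037, 654, 1089 and 1416 against 54.8 and 131. The genes that kept 50 CPM or more in replicate 6 were AURKB, BUB1, BUB1B, KIF11, TPX2 and NUSAP1. In replicate 7 they were CCNA2, CDK1, AURKB, BUB1, BUB1B, CENPF, KIF11, NUSAP1 and ECT2. BUB1, the kinase that marks centromeres in mitosis, was as high in these cells (492 and 676 CPM) as in the others (485 to 942). The sum of G1/S genes was low as well, 484 and 983 CPM against 9061 to 13513, while subunits of the anaphase-promoting complex summed to 1975 and 2470 CPM against 1499 to 2170. All 8 B cell markers had a read in both cells, with sums of 7892 and 780 CPM, and their depth of 5.95 M and 5.91 M reads was within that of the others (2.24 to 7.88).

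Against Smart-Seq2 HEK293T cells, DG-75 had 3 members higher and 15 lower past 2-fold, beside 53.7% of all genes (25.0% higher and 28.7% lower), with a median log2 ratio of -0.83 against -0.05 for all genes. Each line is 1 sample, so this was not tested. CENPE had 7.91 CPM (exact 95% Poisson interval 7.02 to 8.87, counting error only) against 241 (238 to 245), a log2 ratio of -4.77, and it was the single member whose cells did not overlap, beside 8.29% of all genes. CDC20 followed with 23.0 against 352 CPM (-3.88) and KIF20A with 13.96 against 207 (-3.80). Higher in DG-75 were NDC80 (272 against 91.7 CPM, 1.56), NUSAP1 (755 against 358, 1.08) and BUB1B (2265 against 1079, 1.07). With 1 cell of either line left out in turn, CENPE ranged from -7.19, without DG-75 replicate 5, to -4.12, KIF20A from -4.53, without DG-75 replicate 1, to -3.03 and NDC80 from 1.23 to 2.62, the last of each without Smart-Seq2 replicate 2. NUSAP1 then ranged from 0.86 to 1.59 and BUB1B from 0.94 to 1.31, so that neither was past 2-fold without some single cells. Without DG-75 replicates 6 and 7 the counts were 5 higher and 10 lower with a median of -0.30, and without Smart-Seq2 replicate 2 as well they were 8 and 8 with a median of 0.22, settings chosen after seeing the data.

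BUB1B was high in DG-75 replicates 6 and 7, in which most of the other genes were low. It had 458 to 3363 CPM in Smart-Seq2 HEK293T cells and 1661 to 3554 in DG-75, replicates 6 and 7 included with 1661 and 2401. In RNA it was higher at lower input. It had 182, 125 and 115 CPM in 1 ng, 221, 197 and 223 in 100 pg, and 454 and 775 in 10 pg. In 100 cells it had 76.4, 79.4 and 80.1 CPM. Its level went with that of CASC5, the kinetochore scaffold that BUB1 and BUB1B proteins bind to, which is not one of the 36 genes. Over the 63 libraries the Pearson correlation of log2(CPM + 1) was 0.89 and the Spearman 0.90, and over the 39 single HEK293T cells they were 0.87 and 0.85, as a description, since libraries share protocol and input. CASC5 had 31.3 to 64.6 CPM in 100 cells, 84.0 to 101 in 1 ng, 763 to 967 in 100 pg, 8351 and 10991 in 10 pg, 11851 to 123563 in Smart-Seq2 HEK293T cells and 15.4 to 199 in SMART-Seq cells. In variant 3 the median was 115 CPM for CASC5 and 159 CPM for BUB1B. CASC5 was 171623 CPM in replicate 5 of variant 3, or 17.2% of the reads, the cell in which BUB1B was 1997 CPM. In replicate 6 they were 18204 and 591 CPM. With CASC5 left out of the totals, a setting chosen after seeing the data, the median log2 ratios over Smart-Seq2 were -0.23, -0.58, 0.13, -0.77 and 0.32 for variants 1 to 4 and SMART-Seq and -0.83 for DG-75. The part of CASC5 reads and of input in the level of BUB1B was not tested.

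**Figure D5:**
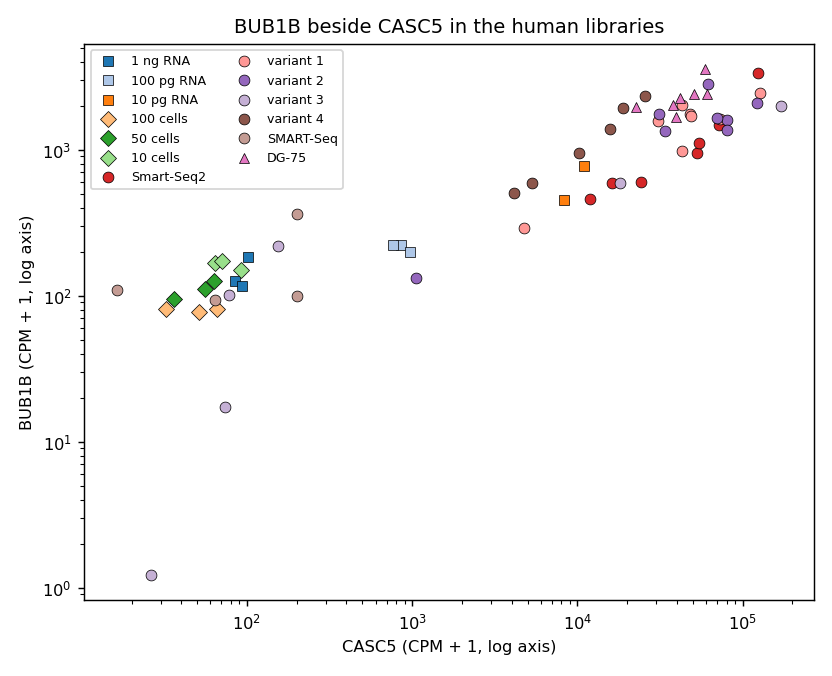
Level of BUB1B against that of CASC5 (both CPM + 1, log axes) in the 63 human libraries, coloured by group, 1 point a library. Libraries of 100 cells and SMART-Seq lie low on both axes and Smart-Seq2 single cells high, with a Pearson correlation of 0.89. Variant 3 cells reach from 25.1 to 171623 CPM of CASC5, with a median of 115.

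Across the 39 single HEK293T cells, with each protocol's mean taken off, the 36 genes moved together more than genes in general. The median Pearson correlation over 630 pairs was 0.27, beside 0.04 for all genes, and 87.3% of pairs were positive, beside 57.6%. Without Smart-Seq2 replicate 2 the medians were 0.22 and 0.03. By protocol the members' median was 0.62 in Smart-Seq2, 0.49 in variant 1, 0.17 in variant 2, 0.11 in variant 3, 0.13 in variant 4 and -0.04 in SMART-Seq. For all genes it was 0.044, 0.004, 0.037, 0.011, -0.009 and 0.024 in that order. The part of Smart-Seq2 replicates 1 and 2, which stood apart, in the 0.62 was not tested. These are descriptions of cells that share libraries' depth and protocol, and groups of 4 to 8 cells give loose values.

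Against the mean of the other 35 genes, CCNB1 had the highest correlation (0.79), followed by KIF20A (0.76), ANLN (0.76), CENPF (0.71), a kinetochore protein, and AURKB (0.71). In all 21 members were above 0.5. CDK1 (0.09), UBE2C (0.09), TPX2 (0.02), SGOL1 (0.12) and BUB1B (0.21) were low. Without Smart-Seq2 replicates 1 and 2, the cells farthest from the median, CCNB1 had 0.74, KIF20A 0.74, ANLN 0.65, CDK1 -0.07, UBE2C 0.24 and TPX2 0.36, so the low values of UBE2C and TPX2 rested in part on those cells. Of the 21 members above 0.5, NEK2, TOP2A, KIF23, CENPA, ASPM, CDCA3, CCNA2, NUF2 and BUB1 then had 0.29 to 0.48.

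Of 9028 other genes at 10 CPM or more, those most like the mean of the 36 genes included DEPDC1 (0.76), KIF14 (0.72), PRC1 (0.70), TACC3 (0.69), TUBA1C (0.68), ZBTB38 (0.67), CDC27 (0.66), CKAP2L (0.63) and ARHGEF39 (0.60), over 39 cells. KIF14 and PRC1 are known to act at the central spindle, TUBA1C is an alpha tubulin and CDC27 a subunit of the anaphase-promoting complex. Without the 2 farthest cells these correlations were 0.54 to 0.65. The median correlation with the mean of the 36 genes was 0.27 over the other mitotic list, 0.07 over the subunits of the anaphase-promoting complex, -0.41 over the G1/S list and -0.01 over all genes. The mean of the G1/S genes itself had a Pearson correlation of -0.60 and a Spearman of -0.48 with that of the 36 genes, and a Pearson of -0.46 without the 2 farthest cells. No correlation is given for DG-75, whose 7 cells fall into 5 and 2, and there the sums of both lists were low in the same 2 cells.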

How the data were processed

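Polyadenylated RNA was sequenced in 63 human libraries, each with 1 table of genes. Per the file headers the deposited values are a count of reads per gene, and RPKM, which the authors computed from those reads. Reads were aligned to hg19 by STAR, per the submitters' processing notes. Not given in the sources used here are the version of STAR, the counting tool, its strand setting and its rule for reads with several matches, so reads of overlapping or near-identical genes could be shared. No coordinates were converted: promoters are those of RefSeq on GRCh38.p14, matched by symbol.

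The members, lists and tests were chosen with earlier results of these data known. Genes whose symbol has several entries were summed, and CPM used the sum of reads over genes. RNA and pools were compared by edgeR 4.0.16 (R 4.3.3), whose quasi-likelihood F test was run on the counts after filterByExpr and TMM scaling, with p-values adjusted over all genes tested by Benjamini-Hochberg and called under 0.05, two-sided. Only the groups compared entered a fit. The scripts were tested on simulated data. Nothing says that replicates came from separate cultures, so a p-value here measures only how these libraries vary, which may be technical. No pair of libraries was a copy of another, the closest being replicates 1 and 2 of 100 cells (mean chi-square per gene 1.81). Single-cell groups count as 1 sample, with reads summed over cells, exact 95% Poisson intervals and no test. Since PCR copies carry no molecular identifier, counting error is all that intervals and floors cover. Correlations over cells used log2(CPM + 1) less the mean of each protocol. Python 3.11.15, numpy 2.4.6, pandas 2.3.3, scipy 1.17.1 and matplotlib 3.10.9 were used.

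Values in every library are printed for CCNB1, CDK1, CDC20, UBE2C, PLK1, AURKB, CENPE, TOP2A and MKI67, taken by role. Added were, in each direction of a test, the 3 members of smallest adjusted p, the 3 with the largest ratio in each direction of a single-cell comparison among members past 2-fold, the 2 of smallest adjusted p each way from the other lists (79 other mitotic genes, 16 subunits of the anaphase-promoting complex, 26 G1/S genes), the 10 genes most like the members (1 of them is not reported here), and the 3 members with the largest and smallest SD. Other members named were chosen after their values were seen. The alternatives were DESeq2 1.42.0 and its size factors, library totals, limma 3.58.1 on log2(RPKM + 1), no filter, all 6 input groups in 1 fit, a length trend, the replicate number as a block, other amounts added before logs, and each library left out. Added after seeing the data were the trend on GC content and length, CASC5 left out of the totals, and cells that stood apart left out. Replicate numbers were taken to pair libraries where all same-numbered libraries deviated together, with correlations above 0.1. These were 0.244, 0.671 and 0.785 for 100 and 50 cells and 0.128, 0.377 and 0.524 for 100 and 10 cells. For 50 and 10 cells they were 0.037, 0.392 and 0.507. Between 100 and 50 cells, replicates 1 and 2 also deviated together across numbers (0.594 and 0.268). Replicate 3 went against replicates 1 and 2 there (-0.302 to -0.746), so the numbers mainly set replicate 3 apart.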

Additional observations from a re-analysis of the deposited data

Results flagged for a closer look

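Levels of the 9 genes taken by role, the summed level of the 36 genes and the number of them with a read were examined in 7 single-cell groups for a cell far from its group, 77 series in all, and 4 were beyond Dixon's critical value, which chance passes about once in 20 series. MKI67 was lowest in replicate 3 of HEK293T Smart-Seq2, with 39.9 CPM, and the gap to the next cell was 0.6475 of the group's range on the log2 scale. MKI67 was also lowest in replicate 4 of variant 4, with 0.922 CPM and a gap of 0.699. CDC20 had no read in replicate 5 of variant 3, the gap being 0.7842, and this was the cell in which CASC5 took 17.2% of the reads. CCNB1 had no read in replicate 6 of DG-75, with a gap of 0.7164, and this cell was low for 31 of the 36 genes.

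The difference between cells and RNA was itself different at the higher and the lower input for 10 genes by the edgeR test of the interaction. On the log2 scale the difference was 0.8682 for CCNB2, 0.8303 for CDK1, 0.8544 for UBE2C, 2.076 for CENPA and 0.8931 for NDC80. It was -1.498 for PLK1, -0.7717 for CDC20, -0.9474 for KIF20A, -0.9829 for KIF2C and -0.742 for TPX2. With the trend on GC content and length taken out, CDK1, CDC20, UBE2C, CENPA and KIF20A did not pass, and with the length trend UBE2C, KIF20A, KIF2C and TPX2 did not.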

How the results depend on the processing

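Of the counts, medians and other values that answer a comparison, 209 stayed alike under the alternatives and 46 moved. A count stayed alike where it changed by under 1.5 times. Of the remaining values, most of them fold changes of single genes, 4275 stayed alike, 194 came to pass, 262 no longer passed and 19 reversed. Another 62, which were counts or medians, moved. A fold change was taken as alike also where its sign changed but it passed in neither fit. The cause was not tested. With all 6 input groups in 1 fit, 16 members and 3849 genes were called in 100 cells against 1 ng. The counts were 0 and 1117 in 10 cells against 100 pg, and 8 and 1611 in 100 against 10 cells. They were 0 and 303 in 50 against 10 cells. In 1 ng against 10 pg they were 10 and 4297, and in the interaction 2 and 761. In 10 cells against 100 pg, limma called 6, the length trend 6 and the trend on length and GC content 5. The genes called in all were 2398, 1799 and 1637. In 50 against 10 cells, DESeq2 size factors gave 2, library totals 5 and the length trend 2, beside 1316, 1435 and 1230 genes. In 1 ng against 10 pg, size factors gave 6, library totals 6, limma 6 and DESeq2 10, beside 2070, 2051, 2375 and 3306 genes. The length trend gave 17 and the trend on both 16, beside 3599 and 3556 genes. With the replicate number as a block 8 members were called in 100 against 50 cells, beside 1582 genes. In 100 against 10 cells 9 members were then higher and 13 lower, beside 4720 genes, a change in the count of members of under 1.5 times. In these comparisons same-numbered libraries were taken as pairs. In 50 against 10 cells replicates 2 and 3 deviated together (correlations 0.392 and 0.507) and replicate 1 did not (0.037). There the block gave 10 members, beside 2879 of 11451 genes. In 1 ng against 10 pg, where libraries share only a number, it gave 0 members and 0 genes in all. Leaving out 1 library gave 21 to 30 members (6335 to 7988 genes) in 100 cells against 1 ng. In 10 cells against 100 pg it gave 2 to 6 (1252 to 2264 genes), and in 100 against 10 cells 11 to 26 (2174 to 4608). In 100 against 50 cells it gave 0 to 1, where 1 was called without 100-cell replicate 3 (43 genes). It gave 0 to 8 (325 to 1742 genes) in 50 against 10 cells and 0 to 0 (1 to 2) in 1 ng against 100 pg. In the interaction it gave 5 to 18 (1385 to 2918 genes). In 1 ng against 10 pg it gave 0 members and 0 genes without a 1 ng library. Where a pair of 10 pg libraries became 1, that library was taken to vary like the other group. Median log2 ratios over Smart-Seq2 then ranged from -0.48 to 0.16 for variant 1, -0.76 to -0.06 for variant 2, -0.03 to 0.85 for variant 3, -0.94 to -0.44 for variant 4 and 0.23 to 1.03 for SMART-Seq. For DG-75 the median was -0.98 without Smart-Seq2 replicate 3 and -0.16 without Smart-Seq2 replicate 2. It reached 0.22 only with DG-75 replicates 6 and 7 and Smart-Seq2 replicate 2 all left out. The median SD in Smart-Seq2 cells ranged from 1.22 to 1.74, and the median pairwise correlation was 0.62 in Smart-Seq2 cells alone. Reversed log2 fold changes in 100 cells against 1 ng were AURKB with the length trend (-0.019) and SGOL1 with the trend on both (-0.46), and in 10 cells against 100 pg CDK1 with the trend on both (-0.15). In 1 ng against 10 pg they were, with the length trend and with both, PLK1 (-0.82 and -0.82), CDC20 (-0.65 and -0.67), BIRC5 (-0.88 and -0.84) and KIF23 (-1.11 and -1.01). Leaving out 10 pg replicate 1 or 2 there gave CDK1 -0.48 or 0.95, CENPE -0.62 or 2.58, MKI67 0.71 or -0.64, AURKA -1.21 or 0.55, INCENP -1.37 or 2.198, KIF11 -0.47 or 0.57, NUSAP1 -0.89 or 0.66 and ASPM -0.98 or 10.19.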
